A study of Mus musculus with 5 samples.

Results

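The data describe 5 genes that are switched on by Notch signaling, Hes1, Hey1, Hey2, Heyl and Nrarp, in cells of the mouse temporomandibular joint (TMJ) disc, the fibrocartilage plate of the jaw joint. They were taken by symbol from the 27998 genes of the deposited tables, and all 5 were present. Discs of WT C57BL/6 mice were digested with Pronase and Collagenase P and sequenced as single cells with the 10x Genomics 3′ kit, 1 library per condition. The 3d library came from 3-day-old pups of both sexes pooled into 1 suspension, and the 3w, 16w and 78w libraries came from normal males of 3, 16 and 78 weeks. For the injured library the anterior band of the right disc was punctured with a 31 gauge needle at 5 weeks of age, and the disc was taken 2 weeks later at an age of 7 weeks; its mice are labelled WT, their sex is not given in the labels, and the methods describe the injury in Myh11-CreER; Tm fl/- reporter mice. No normal library has that age, so the injured library was read against the 3w and the 16w library together. The question was whether the target genes follow Notch2 and Jag1, which are higher in the injured disc, in mural, endothelial, macrophage and stromal cells.

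Notch receptors are single-pass membrane proteins that are bound by the ligands of the Jagged and Delta-like families on a touching cell. Binding lets ADAM proteases and the gamma-secretase complex cut the receptor, and its freed inner part enters the nucleus, joins the DNA-binding protein RBPJ and turns on target genes. Hes1, Hey1, Hey2 and Heyl encode basic helix-loop-helix repressors. Nrarp encodes a small ankyrin-repeat protein that lowers Notch activity, so that its transcript is a commonly used readout of the pathway. In vessels, Notch3 is the receptor typical of mural cells (pericytes and smooth muscle cells), Jag1 presented by endothelium supports the mural coat, and Dll4 with Notch1 and the Hey genes is known for arterial endothelium.

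In the GRCm38 annotation the members lie on 5 chromosomes: Hes1 on chromosome 16 (30064384 to 30067796, plus strand), Hey1 on chromosome 3 (8663359 to 8667256, minus strand), Hey2 on chromosome 10 (30832359 to 30842801, minus strand), Heyl on chromosome 4 (123233556 to 123249875, plus strand) and Nrarp on chromosome 2 (25180758 to 25183339, plus strand). Promoter sequence was at hand for Hey2 and Nrarp from RefSeq (GRCm38.p6), and Hes1, Hey1 and Heyl had no entry. The windows reach from 250 bases before to 50 bases after the start of the RefSeq entry. In them 2 motifs were searched on both strands: TGGGAA, the core bound by RBPJ, whose complement reads TTCCCA, and CACGTG, the E-box that HES and HEY proteins can bind, which is its own complement. They are shown as the kinds of site through which Notch acts on its targets and the HES and HEY proteins act in turn. The stretches of 30 bases, 5′ to 3′ along the strand of the gene with the motif in capitals, were as follows.
Hey2, chr10:30842769-30842798: tgggctgcagcgTGGGAAagaacctccagg
Hey2, chr10:30842973-30843002: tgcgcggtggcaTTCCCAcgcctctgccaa
Nrarp, chr2:25180638-25180667: ccgccccgccccCACGTGggcaccacccaa
The first Hey2 match begins 3 bases before the start of the RefSeq entry and the second 207 bases before it. For Hey2 that start lies inside the gene span given above, which begins at 30842801 on the minus strand. The first Hey2 stretch, 30842769 to 30842798, is thus within that span. The Nrarp match begins 108 bases before the start, and its window held no TGGGAA. Of 32851 promoter windows of the same length, 25.6% held TGGGAA or TTCCCA and 7.15% held CACGTG, so that a match is a description of the letters and nothing more.

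After cells of 200 or fewer UMIs (unique molecular identifiers, each a counted transcript) or of more than 30% mitochondrial UMIs were left out, 14959 cells remained at 3d, 9372 at 3w, 8775 at 16w, 10115 at 78w and 8467 in the injured library. The injured library was the shallowest, with a median of 3299 UMIs per cell against 7721 to 12496 in the others. Library pairs shared 19 to 39 cell barcodes. A group of 10 repeat-like genes led by Gm10800 held 1.15% of the UMIs of the injured library and 0.00232% to 0.0637% elsewhere, so that this library stands apart in more than its condition. Levels are in CPM, the UMI count of a gene scaled to the UMI total of its class and library after all cells of that class were pooled, with exact 95% Poisson intervals. With 1 library per condition there was no test: the intervals cover counting error only and say nothing of the spread between mice. A difference is called here where 2 levels are at least 1.5-fold apart, the 95% interval of their ratio leaves out 1, and the group with more has at least 20 UMIs. Against 3w and 16w it must hold in the same direction for both. For all genes measured in a class, the median ratio of injured over 3w levels was below 1. It was 0.826 in mural, 0.828 in endothelial, 0.874 in macrophage and 0.817 in stromal cells, so that a ratio near these values is that of an ordinary gene. The 1.5-fold limit of a call is set around 1 and not around these medians.

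Classes were clusters of cells, made without the genes of the Notch lists and named by their markers. The naming did use some of these genes, since Notch3, Pdgfrb and Acta2 are among the mural markers. In the order 3d, 3w, 16w, 78w and injured, the mural class held 351, 271, 239, 276 and 111 cells, the endothelial class 1002, 752, 572, 675 and 360, the macrophage class 353, 233, 112, 296 and 472, and the stromal class 10156, 7924, 7693, 8403 and 6842. Since the names were given by markers, the marker levels are a description and no check of the names. Rgs5 was at 4554 to 7137 CPM in mural cells and at 1.18 to 49.0 in endothelial cells, and Pecam1 at 606 to 1035 CPM in endothelial cells. Transcripts of other classes were found in each class. The 13 stromal markers summed to 10400.2 to 18936 CPM in mural cells, with none of them at 0, and the 12 endothelial markers to 203 to 599 CPM there.

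Each target had its own distribution over the classes. Among the 4 classes, Heyl was a transcript of mural cells. Its level there was 65.6 at 3d, 142 at 3w, 47.6 at 16w, 58.9 at 78w and 112 in the injured library, and in endothelial, macrophage and stromal cells no library was above 1.60 CPM. Nrarp was highest in mural cells at every age but 3d, with 67.8 at 3d, 722 at 3w, 307 at 16w, 328 at 78w and 764 in the injured library. Endothelial cells held less of it after 3d, 108 at 3d, 87.1 at 3w, 55.3 at 16w, 37.1 at 78w and 46.1 in the injured library. Macrophages were at 0.805 to 12.03 CPM and stromal cells at 0.411 to 1.11 CPM. At 3d the endothelial level of Nrarp was the higher one, the reverse of the other 4 libraries.

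Hey1 was higher in the mural and endothelial classes than in the other classes, each pooled. In mural cells it stood at 13.6 at 3d, 72.4 at 3w, 31.9 at 16w, 26.7 at 78w and 85.7 in the injured library. In endothelial cells it stood at 39.6 at 3d, 56.9 at 3w, 33.4 at 16w, 33.8 at 78w and 31.9 in the injured library. Stromal cells ranged from 3.16 to 15.6 CPM and macrophages from 0 to 10.3 CPM. The stromal class was mixed, however: at 3w its clusters 2 and 3, described below, held Hey1 at 42.4 and 66.2 CPM. Hey1 was thus not limited to vessels. Hey2 was sparse everywhere, with 9.69 at 3d, 9.51 at 3w, 15.2 at 16w, 18.6 at 78w and 3.29 in the injured library in mural cells, the last of these from 1 UMI, and at most 3.23 CPM in the other classes.

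Hes1 was found in all classes. Its levels were 257 at 3d, 408 at 3w, 696 at 16w, 717 at 78w and 339 in the injured library in mural cells and 204 at 3d, 715 at 3w, 416 at 16w, 478 at 78w and 489.7 in the injured library in endothelial cells. Macrophages had 47.1 at 3d, 201 at 3w, 179 at 16w, 172 at 78w and 119 in the injured library, and stromal cells had 131 at 3d, 324 at 3w, 252 at 16w, 267 at 78w and 165 in the injured library. The 3d library was lowest in each of the 4 classes.

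**Figure D1:**
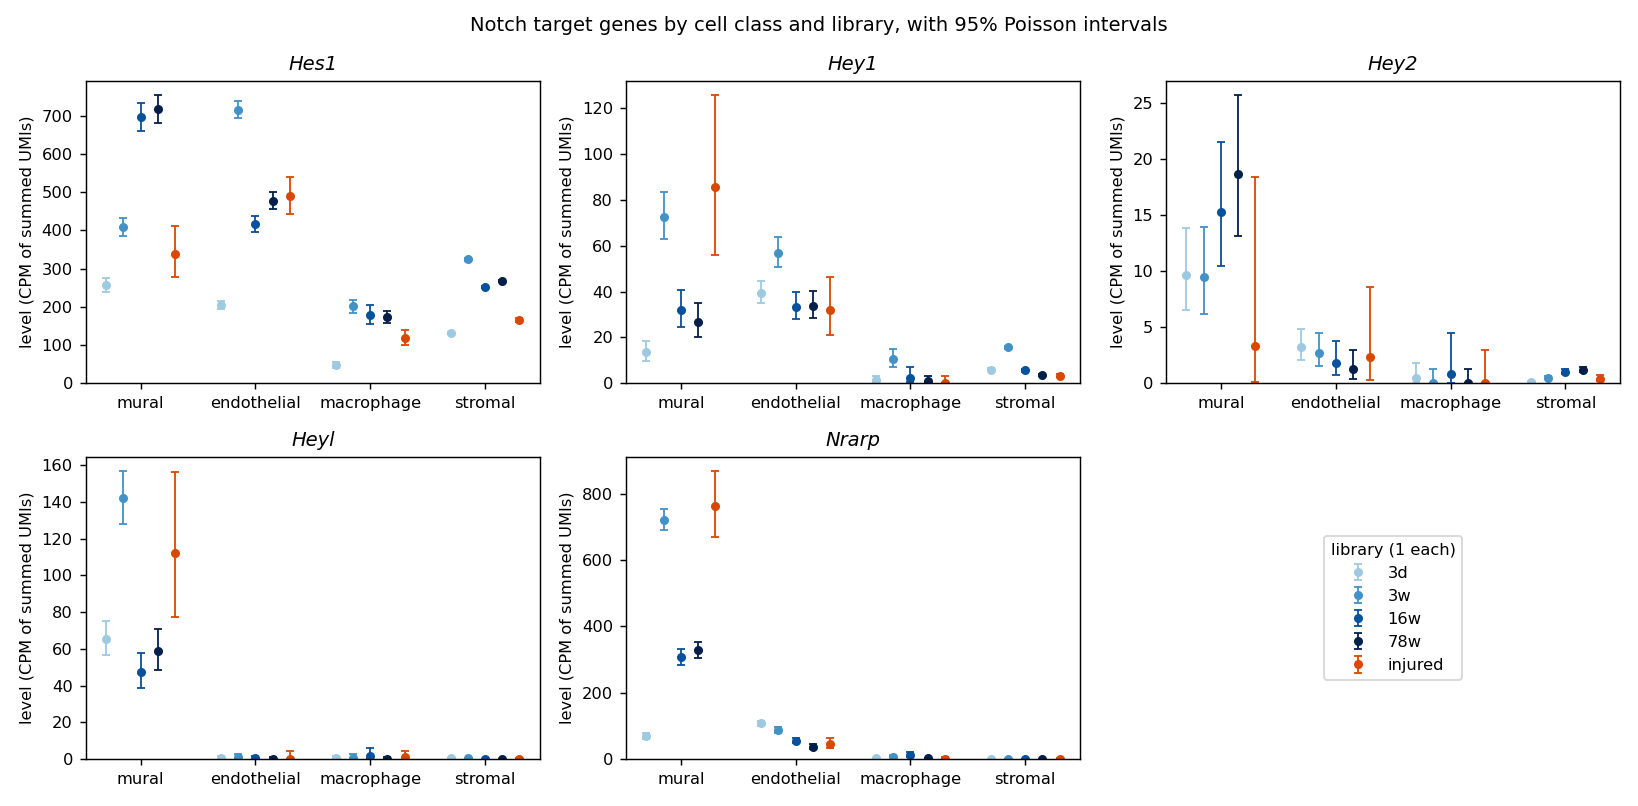
Levels of the 5 Notch target genes (y axis, CPM, pooled by class and library) in 4 cell classes (x axis), with 1 point per library and its exact 95% Poisson interval. Heyl and most Nrarp lie in mural cells, where the 3w and injured libraries are the highest for Heyl, Hey1 and Nrarp, while Hes1 is found in every class.

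Shares of cells were also taken after each cell was thinned to 1000 UMIs, so that depth was equal between libraries. A UMI of Nrarp was seen in 36.5% of mural cells at 3w and 46.9% in the injured library (13 of its 111 mural cells were too shallow and left out). In stromal cells, given for comparison, the share was 0.0126% and 0.107%, and the part of free RNA in it was not tested. The median depths before thinning were 7678 and 2548 UMIs in mural cells and 13230 and 3582 in stromal cells. For Heyl the thinned shares were 8.12% and 12.2% of mural cells and 0.0758% and 0.0307% of stromal cells. Without thinning, 77.1% of mural cells at 3w and 56.8% in the injured library had a UMI of Nrarp.

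Upstream of the targets, the ligand Jag1 and the receptor Notch2 were higher in the injured library in all 4 classes. Jag1 in mural cells was 68.5 at 3d, 237 at 3w, 148 at 16w, 135 at 78w and 547 in the injured library, all in CPM. The injured mural level was 2.30 (1.93 to 2.74) times that of 3w and 3.69 (3.04 to 4.47) times that of 16w, with the 95% interval of the ratio in brackets. In endothelial cells Jag1 was 62.6 at 3d, 98.3 at 3w, 51.4 at 16w, 59.8 at 78w and 355 in the injured library, with ratios of 3.61 and 6.90. Stromal Jag1 was 69.7 CPM in the injured library against 17.3 to 25.9 in the normal ones, and macrophage Jag1 was 41.9 against 11.7 to 36.5, where the 78w library came close.

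Notch2 in mural cells was 29.7 at 3d, 41.3 at 3w, 60.9 at 16w, 81.0 at 78w and 211 in the injured library, with injured ratios of 5.10 (3.69 to 6.99) to 3w and 3.46 (2.52 to 4.71) to 16w. Endothelial Notch2 was 141 CPM in the injured library and 14.0 to 28.1 in the normal libraries. Macrophage Notch2 was 281 against 49.7 to 88.2, and stromal Notch2 was 380.0 against 40.3 to 81.8. In no class did the interval of the injured library reach a normal one for Notch2. Stromal RNA was present in the other classes: the 13 stromal markers summed to 14717 CPM in injured endothelial cells, 18936 in injured mural cells and 16252 in injured macrophages, against 67546 in injured stromal cells. At 3w the sums were 14856, 15681, 15761 and 72402 CPM in the same order. The part of stromal RNA in the Notch2 and Jag1 levels of the other classes was not tested. The same was seen outside the 4 classes: in the synovial lining cluster Notch2 was 73.9 at 3d, 73.2 at 3w, 84.3 at 16w, 57.5 at 78w and 271 in the injured library.

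Of the receptors and ligands with enough UMIs, 2 of 4 were called higher in injured mural cells, 2 of 7 in endothelial cells, 2 of 3 in macrophages and 3 of 7 in stromal cells. Over all genes measured, 4.21% were called higher in mural, 3.83% in endothelial, 8.41% in macrophage and 8.39% in stromal cells. The 2 called in every class were Notch2 and Jag1, which the question had named beforehand as higher in the injured disc. The counts therefore do not show a rise of the list as a whole. Notch2 and Jag1 were among 105 of 5690 genes called higher in all 4 classes at once, a group that also holds Actb, Col1a1 and the repeat-like genes Gm10800 and Gm10801. The third stromal call was Notch3, at 2.01 CPM against 1.12 at 3w and 0.959 at 16w.

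The other receptors did not share this pattern. Notch3, which marks the mural class and is given there as a description, was 405 at 3d, 351 at 3w, 471 at 16w, 555 at 78w and 379 in the injured library in mural cells. Mural Notch1 was 53.0 at 3d, 117 at 3w, 47.1 at 16w, 57.4 at 78w and 115 in the injured library, so that the 3w and injured libraries were close to each other and above the rest. Endothelial Notch1 was 130.5 at 3d, 231 at 3w, 215 at 16w, 241 at 78w and 156 in the injured library. Macrophage Notch1 was called lower in the injured library, at 34.6 CPM against 64.5 at 3w and 68.2 at 16w, where 16.5% of all genes were called lower. Of the Delta-like ligands, endothelial Dll4 was 42.8 at 3d, 182 at 3w, 64.5 at 16w, 71.8 at 78w and 59.1 in the injured library, highest at 3w, and its injured ratio was 0.326 (0.24 to 0.433) to 3w and 0.918 (0.663 to 1.25) to 16w. Notch4, the other endothelial receptor, ranged in endothelial cells from 25.1 CPM at 78w to 50.8 at 3d, with 34.3 in the injured library. Jag2 and Dll1 were at most 29.0 and 46.0 CPM in any class and library, and Dll3 at most 0.507.

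**Figure D2:**
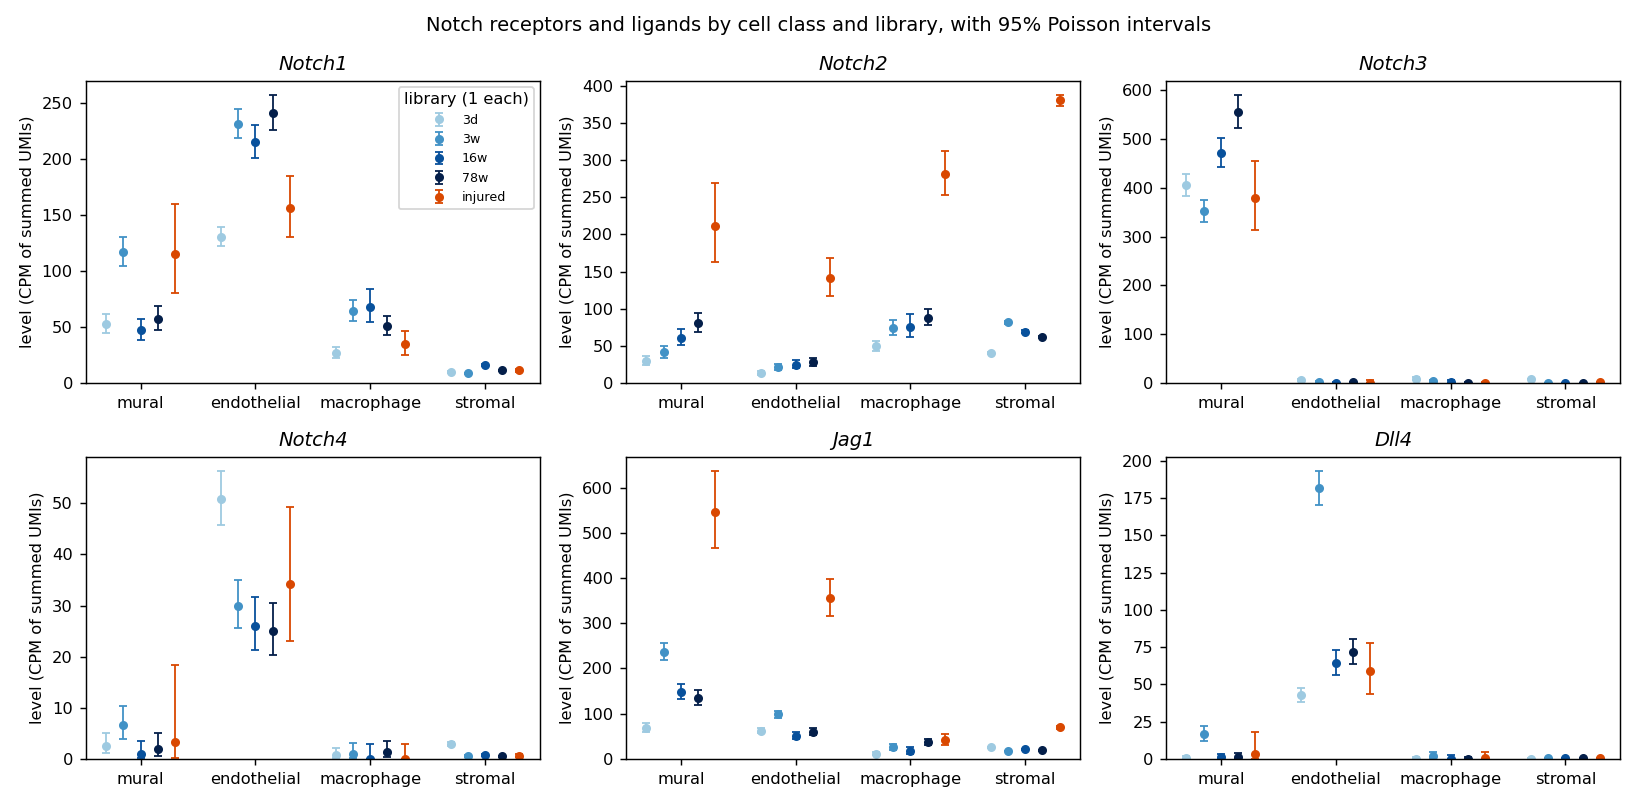
Levels of 4 Notch receptors and 2 ligands (y axis, CPM, pooled by class and library) in 4 cell classes (x axis), with 1 point per library and its exact 95% Poisson interval. Notch2 and Jag1 of the injured library lie above all normal libraries in each class, with the 78w macrophages close for Jag1, while Notch1, Notch3, Notch4 and Dll4 show no such shift.

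In no class were all measured targets higher along with Notch2 and Jag1 against both references. In mural cells the reading depended on the reference library. In injured mural cells 0 of 5 targets were called higher and 0 lower against both 3w and 16w. Of all 7459 genes, 4.21% were called higher and 7.31% lower. With shares this low, 0 calls among 5 genes is an ordinary outcome and no result about the targets. The injured levels of Nrarp, Hey1 and Heyl were close to those at 3w and above those at 16w. The ratio of Nrarp was 1.06 (0.92 to 1.21) to 3w and 2.49 (2.13 to 2.90) to 16w. For Hey1 the ratios were 1.18 (0.754 to 1.79) and 2.69 (1.64 to 4.28), resting on 26 UMIs of the injured library. For Heyl, with 34 injured UMIs, they were 0.789 (0.539 to 1.12) and 2.35 (1.55 to 3.50). Against 16w alone, 3 targets are therefore called higher in injured mural cells, and against 3w alone none is. The same 3 were called higher against 78w, by 2.33 for Nrarp, 3.21 for Hey1 and 1.90 for Heyl. They were also called higher against 3d, by 11.3, 6.31 and 1.71. No share of all genes is given for a single reference library. These single-library counts therefore describe the named genes only and cannot be set against an ordinary gene. Hes1 was called lower against 78w (0.473) and was not called against 3d (1.32). The median ratio of all mural genes to 3w was 0.826, as given above. The interval of Nrarp to 3w lies above that median, and those of the other targets include it. No such median is given for 16w.

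Ordered by level, mural Nrarp was highest in the injured library and at 3w, whose intervals overlap (669 to 869 and 691 to 755), then came 78w and 16w, which overlap as well, and 3d was lowest. Heyl had the order 3w, injured, 3d, 78w and 16w, where 3w and injured overlap, and 3d, 78w and 16w all overlap each other. Hey1 had the order injured, 3w, 16w, 78w and 3d, where injured and 3w overlap, and 16w and 78w overlap. Endothelial RNA in mural cells moved with this split: Pecam1 was 6.46 at 3d, 55.6 at 3w, 8.09 at 16w, 1.01 at 78w and 36.2 in the injured library in the mural class, highest at 3w and in the injured library. In endothelial cells at 3w Nrarp was 87.1, Heyl 1.26 and Hey1 56.9 CPM. The part of endothelial RNA in the mural levels was not tested. Mural Jag1 had the same order as Hey1, that is injured, 3w, 16w, 78w and 3d, though its injured interval lay above that of 3w.

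Mural Hes1 had another order. The injured level was 339 CPM (277 to 412), which overlaps the 408 CPM (384 to 433) of 3w, and it was 0.488 (0.395 to 0.596) times that of 16w. The order was 78w and 16w, whose intervals overlap, then 3w and injured, which overlap, then 3d. The 14 immediate early and dissociation genes, which respond within minutes to handling of cells, summed, in CPM, in mural cells to 5794 at 3d, 12849.8 at 3w, 24382 at 16w, 23771 at 78w and 12613 in the injured library, and thus stood in nearly the same order, with 16w before 78w. In the other classes the orders differed: endothelial, macrophage and stromal Hes1 was highest at 3w. The sum was highest at 78w in endothelial cells (18193), and at 16w in macrophages (34717) and stromal cells (17866). At 3d both Hes1 and the sum were lowest in endothelial and stromal cells. The part of these genes in the Hes1 values was not tested. Hey2 was too sparse to read, with 1 UMI in injured mural cells and ratios of 0.346 (0.00845 to 2.11) and 0.216 (0.00531 to 1.29).

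Mural calls depended on how the cells were picked. When mural cells were taken by UMIs of Rgs5 and Notch3 in place of clusters, the injured over 16w ratio was 1.49 for Nrarp and 1.07 for Heyl and no longer called, Jag1 over 3w was 1.31 and lost its call, and Hes1 over 3w became 0.579 and called lower. This gate took 146 cells of the injured library, of which the clusters place 78 in the mural class, against 224 of 264 at 3w.

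**Figure D3:**
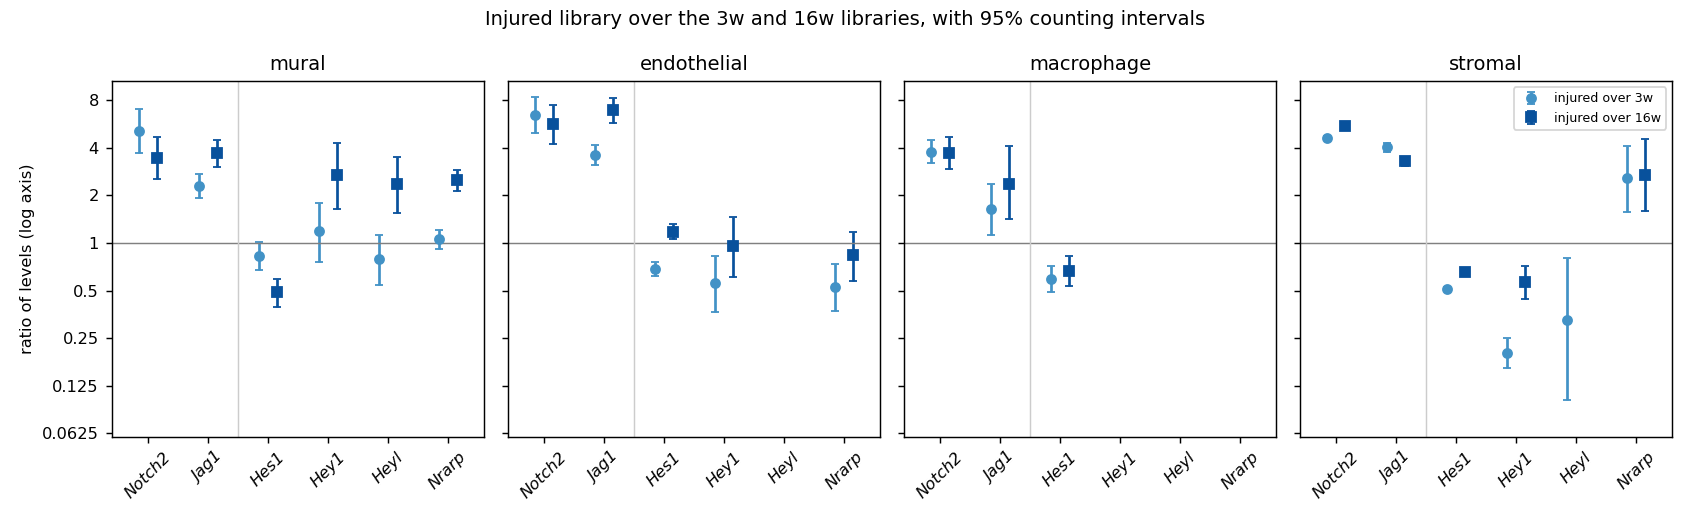
Ratio of the level in the injured library to that at 3w (circles) and 16w (squares), on a log axis, for Notch2, Jag1 and 4 of the targets in each class, with exact 95% counting intervals (pairs with too few UMIs, or fewer than 3 injured UMIs, are left out). Notch2 and Jag1 lie above 1 in all panels, and the targets scatter on both sides of 1. In no class are all of them above 1 for both references. The line at 1 is not the ratio of an ordinary gene, since the median of all genes over 3w was 0.817 to 0.874 by class.

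In endothelial cells 3 targets had enough UMIs, and 0 were called higher and 0 lower against both references. Of all genes, 3.83% were called higher and 12.5% lower, so that 0 calls among 3 genes is an ordinary outcome as well. Hes1 in the injured endothelium was 0.685 (0.617 to 0.758) times 3w and 1.18 (1.05 to 1.31) times 16w, so that it lay between them. Hey1, with 27 injured UMIs, was called lower against 3w with a ratio of 0.561 (0.364 to 0.832) and was not called against 16w with 0.956 (0.607 to 1.46). Nrarp went the same way, with 0.53 (0.372 to 0.735) and 0.834 (0.577 to 1.18). Dll4, the endothelial ligand, was likewise lower in the injured library than at 3w, while endothelial Jag1 was higher.

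In macrophages only Hes1 had enough UMIs in both comparisons, and it was called lower in the injured library, with 119 CPM (101 to 140.0) against 201 (185 to 218) at 3w and 179 (156 to 204) at 16w. Its ratios were 0.593 and 0.666, and 16.5% of all genes were called lower there, as given above. The call was lost when levels were scaled by median-of-ratios size factors (0.674 and 0.774), and the ratio to 16w was 1.05 when macrophages were picked by marker UMIs. Hey1 had 0 UMIs in injured macrophages, 3 at 16w and 30 at 3w, and Nrarp had 1, 15 and 21. These UMIs lay in few cells. At 3w Hey1 was seen in 3.00% and Nrarp in 1.29% of 233 macrophages, and at 16w Nrarp in 3.57% of 112. Heyl and Hey2 had at most 2 UMIs in any macrophage library.

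Stromal cells, by far the most numerous class, gave the narrowest intervals. Of 4 targets measured, 1 was called higher and 2 were called lower in the injured library. Of all genes, 8.39% were called higher and 19.5% lower. Hes1 was 165 CPM against 324 at 3w and 252 at 16w, with ratios of 0.511 (0.495 to 0.527) and 0.657 (0.636 to 0.678). Hey1 was 5.93 at 3d, 15.6 at 3w, 5.59 at 16w, 3.67 at 78w and 3.16 in the injured library, with ratios of 0.202 (0.161 to 0.25) and 0.564 (0.444 to 0.711). Nrarp was called higher with ratios of 2.56 and 2.71, yet at a level of 1.11 CPM from 31 UMIs in 6842 cells. Whether it came from free RNA of other cells was not tested. Stromal Notch2, in contrast, rested on 10597 injured UMIs.

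Set against all 4 normal libraries at once, 0 targets were called in mural, endothelial and macrophage cells in either direction, where 2.11% of all genes were called higher and 2.79% lower in mural, 1.94% and 5.11% in endothelial cells and 3.62% and 5.41% in macrophages. In stromal cells 1 target, Nrarp, was called higher and 0 lower, where the shares of all genes were 3.58% and 7.39%.

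The lower Hes1 of injured stroma did not hold in every stromal cluster. Cluster 1, led by Chad and Cytl1, had Hes1 at 38.7 at 3d, 169.8 at 3w, 230.2 at 16w, 218 at 78w and 91.9 in the injured library. Cluster 2, led by Coch and Angptl7, had it at 123 at 3d, 668 at 3w, 299.7 at 16w, 418 at 78w and 285 in the injured library. Cluster 3, led by Pi16 and Clec3b, had it at 166 at 3d, 739.7 at 3w, 326 at 16w, 386 at 78w and 360.1 in the injured library. In cluster 1 the injured level was below 3w and 16w. In clusters 2 and 3 it was below 3w, and its intervals (272 to 299 and 339 to 382) overlapped those of 16w (291 to 308 and 312 to 341). With the 3 clusters given equal weight the injured over 16w ratio was 0.861, and with size factors it was 0.744, neither of which is called. Notch2 was higher in the injured library in each of the 3, at 407, 334 and 311 CPM against at most 83.3 in any normal library. Hey1 was lowest in cluster 1 over all libraries, at 2.26 CPM, against 14.8 and 16.8 in clusters 2 and 3.

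Within the vessels the targets marked different cells. Mural subcluster 1 expressed Myh11 and Cnn1 and was smooth muscle-like, subcluster 2 expressed Kcnj8, Abcc9 and Higd1b and was pericyte-like, and subcluster 3, which stays unnamed, was led by the chemokines Cxcl9, Ccl11 and Ccl2. The leading 10 genes of subcluster 3 also held Esm1 and Cldn5, which are endothelial genes, and the pericyte gene Ednrb, and the part of endothelial RNA in its levels was not tested. It drew 91 of its 223 cells from 3w and 40 from the injured library. The mural class held further cells that are not described here. Subcluster 4 (149 cells) had Cnn1 among its leading genes beside the stromal genes Chad and Prg4. Subcluster 5 (54 cells, 52 of them at 3d) was led by cell cycle genes. Over the 5 libraries, Hey2 was 30.3 CPM (24.5 to 37.1) in smooth muscle-like cells and 4.80 (2.56 to 8.21) and 4.24 (1.70 to 8.73) in subclusters 2 and 3. Nrarp was highest in smooth muscle-like cells as well, with 738 CPM against 179.9 and 444. Hey1 was lowest in smooth muscle-like cells, with 23.1 CPM, against 44.0 in pericyte-like cells and 76.9 in subcluster 3. The libraries hold these subclusters in different shares, so that Hey1 was also read by library: in the same order it was 9.14, 9.32 and 62.5 CPM at 3d, 45.9, 113 and 97.3 at 3w, 23.7, 59.1 and 31.1 at 16w, 13.8, 34.1 and 51.9 at 78w and 25.6, 179 and 101 in the injured library. Smooth muscle-like cells had the lowest value in each, but apart from 3w their interval overlapped that of at least 1 of the other 2 subclusters, and the order of the other 2 changed between libraries. Heyl was found in all 3, at 81.8, 95.7 and 128 CPM.

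For Nrarp the 3w and injured libraries were close in 2 of these 3 subclusters. In smooth muscle-like cells Nrarp was 167 at 3d, 1334 at 3w, 693 at 16w, 578 at 78w and 1244 in the injured library. In subcluster 3 it was 109 at 3d, 667 at 3w, 79.5 at 16w, 112 at 78w and 675 in the injured library. In pericyte-like cells it was 43.7 at 3d, 639 at 3w, 64.5 at 16w, 80.5 at 78w and 278 in the injured library, where the injured value rests on 14 UMIs of 18 cells and its interval of 152 to 467 lies below the 575 to 708 of 3w. Smooth muscle-like Hes1 was 279 at 3d, 464 at 3w, 928 at 16w, 751 at 78w and 298 in the injured library, so that its injured level was below both 3w and 16w there, with an injured interval of 208 to 415 that overlaps the 413 to 519 of 3w. The shares of the subclusters differed between libraries: subcluster 3 held 40 of 111 injured mural cells and 36 of 239 at 16w.

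Endothelial subcluster 5 expressed Gja5 and Sema3g and was arterial-like, and subcluster 2 expressed Selp and Ackr1 and was venular-like. Hey1 was 173 CPM (157 to 191) in arterial-like and 8.74 (6.15 to 12.05) in venular-like cells, and Hey2 was 16.0 and 0.472. Nrarp was 153 and 31.7 over all libraries, but 83.9 and 91.8 at 3d, where the intervals overlap. Hes1 was 487 and 492 over all libraries and differed in both directions within them: it was lower in arterial-like than in venular-like cells at 3d (128 and 288), at 3w (688 and 822) and in the injured library (399.5 and 638), and higher at 16w (601 and 363) and 78w (598 and 362). The intervals overlap in the injured library and are apart in the others. Arterial-like Hey1 was 266 at 3d, 163 at 3w, 154 at 16w, 96.9 at 78w and 60.9 in the injured library, the last from 9 UMIs of 48 cells, while arterial-like Jag1 was 497 at 3d, 322 at 3w, 217 at 16w, 224 at 78w and 806 in the injured library. In the cells with the most endothelial Jag1 and Hey1, the injured library was the highest in Jag1 and the lowest in Hey1. The injured Hey1 interval of 27.9 to 116 overlaps those of 78w and 16w. As Jag1 is bound by receptors on a touching cell, its level sets no expectation for Hey1 in the same cells, and both are given as a description.

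**Figure D4:**
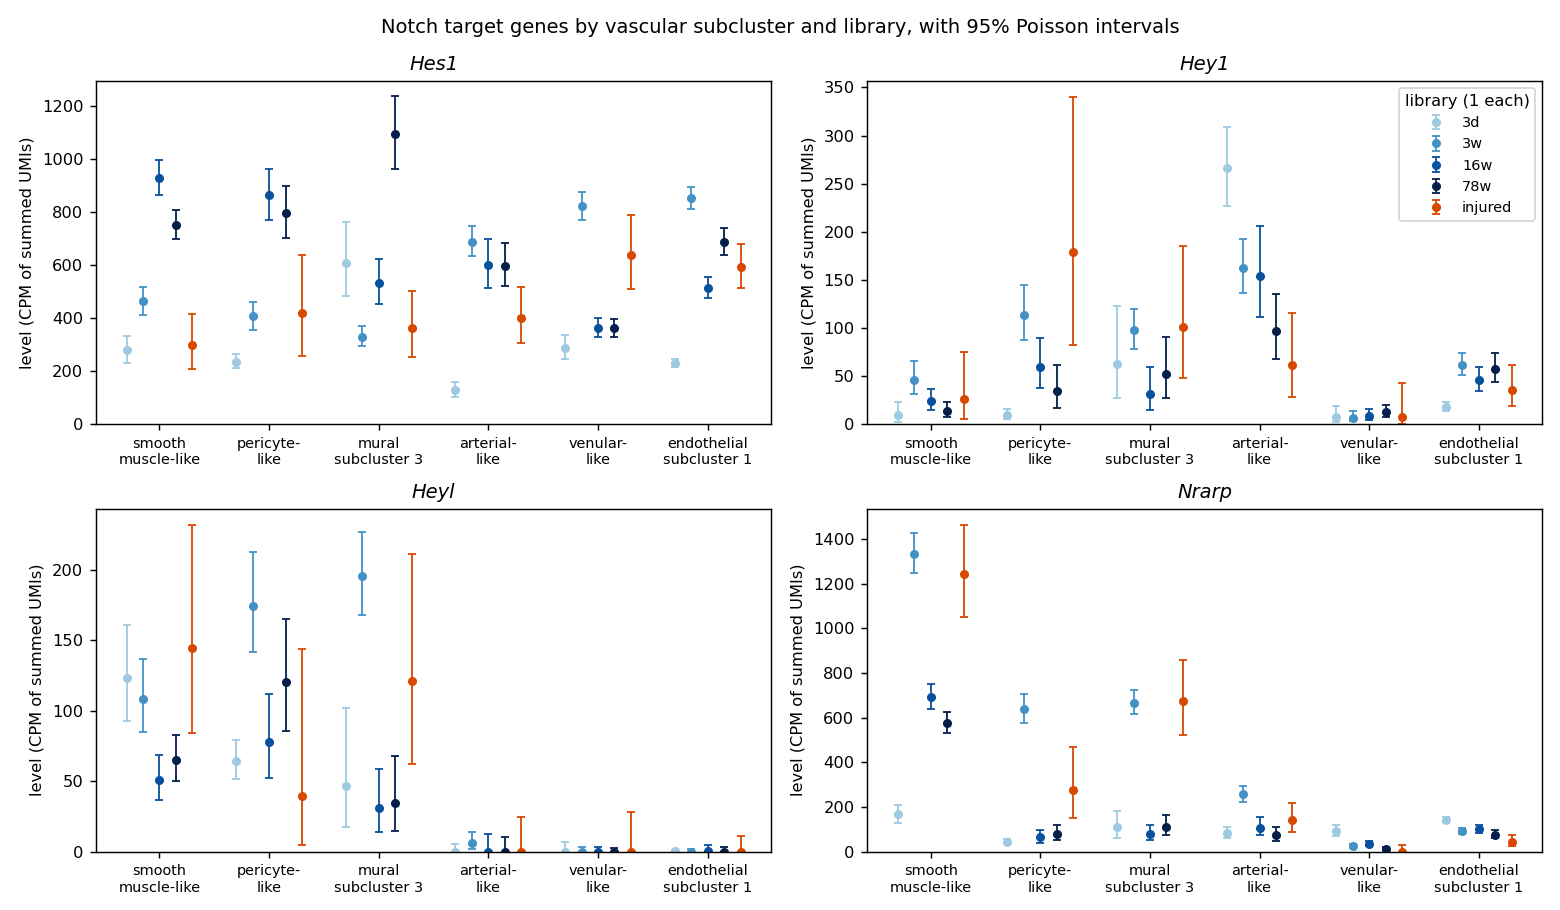
Levels of Hes1, Hey1, Heyl and Nrarp (y axis, CPM of summed UMIs) in 3 mural and 3 endothelial subclusters (x axis), with 1 point per library and its exact 95% Poisson interval. Nrarp is high at 3w and in the injured library in smooth muscle-like cells and in mural subcluster 3, Heyl is at or near 0 in endothelium, and Hey1 separates arterial-like from venular-like cells.

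Over the normal ages, the oldest library was set against the youngest. In mural cells 4 of 5 targets were called higher at 78w than at 3d and 0 lower, where 21.4% of all genes were called higher and 29.9% lower. The ratio was 4.84 (4.13 to 5.68) for Nrarp, 2.80 (2.56 to 3.05) for Hes1, 1.97 (1.29 to 3.02) for Hey1 and 1.92 (1.15 to 3.22) for Hey2, while Heyl had 0.898 (0.709 to 1.13). The course was not a steady one: Nrarp, Hey1 and Heyl were highest at 3w, and at 78w these 3 were called lower than at 3w. The make-up of the class differed: smooth muscle-like cells were 59 of 351 at 3d and 147 of 276 at 78w. Cells of the cell cycle subcluster were 52 and 0. By the levels given above, Nrarp was higher at 78w in smooth muscle-like and pericyte-like cells and close to 3d in subcluster 3. With subclusters given equal weight, 2 targets were called higher, and no share of all genes is given for that setting. All 14 immediate early and dissociation genes were called higher at 78w in mural cells as well. The Hey1 and Hey2 calls were lost or turned with other settings: Hey1 was 0.915 with cells picked by marker UMIs, and Hey2 was 0.757 with subclusters given equal weight and 0.838 after thinning.

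In endothelial cells Hes1 was called higher at 78w than at 3d, by a ratio of 2.34 (2.19 to 2.51), and Nrarp lower, by a ratio of 0.344 (0.286 to 0.411), where 20.8% and 27.6% of all genes were called higher and lower. Endothelial Nrarp was lower in each later normal library, and mural Nrarp was highest at 3w. In macrophages Hes1 was called higher with a ratio of 3.65 (3.08 to 4.34), where 18.3% of all genes were called higher. In stromal cells 2 targets were called higher, where 22.8% of all genes were: Hes1 with a ratio of 2.04 (2.00 to 2.09) and Hey2 with 9.33 (5.14 to 18.6). The other 3 were called lower, where 34.5% of all genes were: Hey1 with 0.618 (0.538 to 0.709), Heyl with 0.21 (0.0948 to 0.421) and Nrarp with 0.646 (0.426 to 0.972). Stromal Hey1 was 1.25 with stromal clusters given equal weight, and stromal Nrarp was 1.35 with cells picked by marker UMIs and 1.02 with cells given equal weight. Stromal Hey2 reached no more than 1.21 CPM. Hes1 was thus called higher at 78w in all 4 classes. In macrophages it was the only target with enough UMIs, so that no other target could be called in all 4. No share of all genes called higher in all 4 classes is given for this pair. Of the 14 immediate early and dissociation genes, 14 were called higher at 78w in endothelial, 7 in macrophage and 10 in stromal cells, beside all of them in mural cells. Egr1 and Ier2 were called lower in macrophages and Egr1 in stromal cells. The part of these 14 genes in the Hes1 values was not tested. The 3d pups were of both sexes and the 78w mice male, so that age and sex cannot be told apart.

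Other genes of the pathway were read from lists of 28 modulators and transducers, 18 further genes described as Notch targets and 5 relatives of the HES and HEY proteins. Of the modulators, 1 of 22 was called higher and 1 lower in injured mural cells. The first was Adam10, a protease that cuts bound Notch receptors, with 76.2 at 3d, 33.3 at 3w, 34.8 at 16w, 30.7 at 78w and 98.8 in the injured library. The second was Rbpj, the DNA-binding partner of Notch, with 57.2 at 3d, 79.8 at 3w, 93.3 at 16w, 81.5 at 78w and 39.5 in the injured library. Adam10 was also called higher in injured macrophages (2.04 and 1.65 times 3w and 16w) and stromal cells (1.99 and 2.34). Spen, a corepressor that binds RBPJ, was called lower in endothelial (0.576 and 0.585), macrophage (0.401 and 0.372) and stromal cells (0.531 and 0.398).

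Over the 4 classes the numbers of modulators called higher and lower were 1 and 1 of 22 in mural, 0 and 4 of 25 in endothelial, 1 and 1 of 20 in macrophage and 1 and 4 of 25 in stromal cells. The shares of all genes called higher and lower were 4.21% and 7.31% in mural, 3.83% and 12.5% in endothelial, 8.41% and 16.5% in macrophage and 8.39% and 19.5% in stromal cells. The median injured over 3w ratio of the modulators was 0.911, 0.882, 0.893 and 0.723 in these classes, against the medians of all genes given above. Among the further targets, Ccnd1, which encodes cyclin D1, was called higher in all 4 classes, and Id1, a helix-loop-helix inhibitor, was called lower in all 4, as were 1.85% and 2.13% of the genes measured in all classes. Mural Ccnd1 was 157 at 3d, 26.0 at 3w, 27.6 at 16w, 30.7 at 78w and 65.9 in the injured library, and mural Id1 was 129.6 at 3d, 158 at 3w, 266 at 16w, 171 at 78w and 102 in the injured library. Snai1 and Myc were called lower in injured mural cells, with 0.516 and 0.297 for Snai1 and 0.63 and 0.434 for Myc. In total 1 of 14 were called higher and 3 lower in mural, 2 and 5 of 15 in endothelial, 1 and 4 of 9 in macrophage and 2 and 5 of 17 in stromal cells, to be read beside the shares of all genes just given.

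Of the relatives, Bhlhe41 was called higher in injured endothelial, macrophage and stromal cells and Bhlhe40 lower in endothelial and stromal cells; both are repressors of the same fold that respond to other signals. Stromal Bhlhe41 was 3.26 at 3d, 33.8 at 3w, 16.4 at 16w, 19.8 at 78w and 89.2 in the injured library, and stromal Bhlhe40 was 45.3 at 3d, 244 at 3w, 289.7 at 16w, 224 at 78w and 113 in the injured library. The immediate early and dissociation list was lower in the injured library in part: 5 of 14 genes in mural, 9 in endothelial, 6 in macrophage and 5 in stromal cells were called lower, with Socs3 and Ier2 in all 4. Hspa1b was called higher in endothelial cells. Of all genes, 7.31%, 12.5%, 16.5% and 19.5% were called lower in these classes. Injured Hes1 was below its 16w level in mural, macrophage and stromal cells and above it in endothelial cells, and the part of such genes in these values was not tested.

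Genes whose levels ran most like those of each target were found by Pearson's r of log2(CPM + 1) over the 20 points of 4 classes and 5 libraries, among 14871 genes. The points share libraries and depth, and r is given as a description. For Heyl they were Trpc6 (0.99), Casq2 (0.979) and Olfr558 (0.977), and for Nrarp Gja4 (0.96), Prkar1a (0.94) and Pcp4l1 (0.939). Hey2 ran most like Vcl (0.956), Csrp1 (0.939) and Inpp5a (0.924), and Hey1 like Sparcl1 (0.918), Adamts9 (0.915) and Ppp1r2 (0.899). For Hes1, the most widely found target, they were Osmr (0.929), Arhgef12 (0.924) and Mical3 (0.915).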

How the data were processed

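Per the labels, the authors prepared cells of digested TMJ discs with the 10x Genomics 3′ kit. The deposited values are UMI counts of each gene in each cell barcode, not normalized, in 1 matrix for each of the 5 libraries. Cell Ranger 3.1 and mm10 are named in the submitters' processing notes, while Cell Ranger 4.0.0 stands in the file headers. Ages follow the labels, although the name of the 78w file gives a younger age.

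Barcodes were kept where the UMI count exceeded 200 and mitochondrial UMIs made up no more than 30%. The 5 libraries were integrated in Seurat 5.3.0 (R 4.3.3, Matrix 1.6.5) with 2000 variable features, 30 dimensions and a resolution of 0.2. The 65 genes of the Notch lists were left out of the features. A cluster was named where at least 3 markers of a type were at 2 times or more the lower quartile of the other clusters. Its cells also had to be not far shallower than their library. For types other than stromal, the mean fold of the markers had to pass a set limit, with a marker among the leading 10 genes. In every case these 10 held no more markers of another type than of its own. The stromal name needed no marker among these 10. Clusters 5, 8 and 10 stayed unnamed. Cluster 8, led by hemoglobin and cell cycle genes, held 903, 14, 3, 3 and 67 cells at 3d, 3w, 16w, 78w and after injury and was kept out of the stromal class by that rule, a rule chosen with the clusters known. The cells of the mural and endothelial classes were clustered again at a resolution of 0.3. Cell names are rebuilt here and may differ from those of the study.

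Levels are CPM of summed UMIs with exact 95% Poisson intervals. Ratios of 2 levels have exact intervals from the split of their counts, and thinned shares Clopper-Pearson intervals, all from scipy 1.17.1 with numpy 2.4.6. UMIs make the counts molecules, and no interval covers more than counting error. No p-value was computed, since each condition has 1 library. Scrublet (scanpy 1.11.5) marked 0 to 2 cells per library as doublets and thus did not work, so that no doublets were removed. In an alternative, cells of the highest 6% of scores were left out. The step that makes calls was checked on simulated counts. Of the gene IDs, 27722 of 27998 (99.01%) were found in GENCODE M21 on GRCm38.

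The members and lists were chosen with earlier results of these data known. Named were the 5 members, the Notch receptors and ligands, up to 4 called genes with the largest ratios of each other list, and the 3 genes most like each member among those with at least 100 UMIs. Some modulators that this rule would name are not reported here. Actb, Col1a1 and the repeat-like genes were named after their values were seen. Alternatives changed the cell filter (at least 1000 UMIs, at most 10% mitochondrial), the integration, the resolution (0.5), the picking and weighting of cells, the depth, the scaling, the fold, the UMI minimum and the reference libraries.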

Additional observations from a re-analysis of the deposited data

Results flagged for a closer look

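In unnamed clusters outside the 4 classes, 2 levels were flagged as above those of the stromal cells. Heyl was 6.66 CPM (4.07 to 10.3) in cluster 5, an unnamed cluster of shallow cells led by muscle genes such as Myog and Actc1, from 20 UMIs of which 19 were at 3d. Nrarp was 3.85 CPM (2.81 to 5.16) in cluster 8, an unnamed cluster led by hemoglobin and cell cycle genes, from 45 UMIs of which 44 were at 3d. In stromal cells Heyl was at most 0.55 CPM and Nrarp at most 1.11 CPM. The named Schwann cluster stood higher in Heyl than cluster 5, at 26.7 CPM (14.2 to 45.6) from 13 UMIs, of which 12 were at 3d. Hes1 was 474 CPM (415 to 539) in the Schwann cluster.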

How the results depend on the processing

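No paired analysis was possible because each condition has 1 library. For the same reason no replicate could be left out. Counts of targets and of receptors and ligands that moved by more than 1.5 times from those reported are given here by setting, and the cause was not tested unless the setting itself leaves out genes or libraries.

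Injured against the reference libraries. Against 16w alone, 3 targets were called higher and 1 lower in mural cells, and receptors and ligands called lower were 1 in endothelial and 2 in stromal cells. Against 3w alone, targets called lower were 2 in endothelial cells and 3 in macrophages, and 1 endothelial receptor or ligand was called lower. For 16w alone and 3w alone no share of all genes is given, so these counts have no background. Against all 4 normal libraries, 0 targets were called lower in macrophages and 0 in stromal cells, and in macrophages 1 receptor or ligand was called higher and 0 lower. With the marker gate, 1 mural target and 0 macrophage targets were called lower, and 1 mural receptor or ligand was called higher and 1 lower. With cells given equal weight, 1 endothelial target was called lower, as with subclusters given equal weight, which also called 3 endothelial receptors and ligands lower. Macrophage targets called lower were 0 without integration, with size factors, with a 2-fold limit and without the highest doublet scores, and 2 with no minimum of UMIs. Stromal targets called lower were 1 without integration, at a resolution of 0.5, with size factors and with stromal clusters given equal weight, and 0 with a 2-fold limit. Stromal targets called higher were 0 after thinning and with a minimum of 100 UMIs. After thinning, receptors and ligands called higher were 1 in mural cells and 1 in macrophages, and those called lower 1 in endothelial cells and 0 in macrophages. With a 2-fold limit or a minimum of 100 UMIs, 1 macrophage receptor or ligand was called higher and 0 lower. The 2 endothelial and 3 stromal receptors and ligands called higher moved by no more than 1.5 times in any setting.

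78w against 3d. Mural targets called higher were 2 with the marker gate, after thinning, with a 2-fold limit, with a minimum of 100 UMIs and with subclusters given equal weight. Endothelial targets called lower were 2 without integration, 2 with cells and 3 with subclusters given equal weight. Stromal targets called higher were 1 after thinning, and those called lower were 0 after thinning and 1 with the marker gate, with cells or stromal clusters given equal weight, with size factors, with a 2-fold limit and with a minimum of 100 UMIs. With 78w set against 3w, targets called higher and lower were 2 and 3 in mural, 0 and 2 in endothelial and 0 and 2 in macrophage cells, and 1 was called higher in stromal cells. No share of all genes is given for that pair.

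Ratios that were called and turned were these. For 78w over 3d, mural Hey1 was 0.915 with the marker gate, mural Hey2 was 0.838 after thinning and 0.757 with subclusters given equal weight, endothelial Jag2 was 0.438 and Dll4 0.771 without integration, macrophage Notch2 was 0.818 after thinning, stromal Hey1 was 1.25 with stromal clusters given equal weight, and stromal Nrarp was 1.35 with the marker gate and 1.02 with cells given equal weight. For the injured library, macrophage Nrarp over 3w was 1.06 without the highest doublet scores and macrophage Hes1 over 16w was 1.05 with the marker gate. Of 762 alternatives of called ratios, 674 kept the call, 77 lost it in the same direction and 11 turned. The levels themselves were less steady: of 1025 alternatives of levels, 783 were counted as the same and 242 as moved. The highest doublet scores, the stromal clusters, the stromal-transcript subclusters and the mitochondrial and repeat-like UMIs were settings chosen after the data had been seen. Scrublet's own doublets were not used, since it marked almost no cell. Depth limits the injured mural class most, with 3 UMIs there worth 9.88 CPM, so that Hey2 could not be read.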
